A study of Mus musculus with 10 samples.

Results

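The 41 genes described here bring fatty acids into the cardiomyocyte and carry them through mitochondrial beta-oxidation, or regulate that process. They were taken from a list of gene symbols, and a gene was a member when its Ensembl identifier in the count table mapped to one of these symbols in the GENCODE M21 annotation of the mouse genome GRCm38. All 41 were found among the 51789 genes of the table. Cardiomyocytes were isolated on day 4 after MI (myocardial infarction) from 5 TgGRK5 mice (TgGRK5-MI) and from 5 NLC mice (NLC-MI), and their RNA was sequenced with 1 library per mouse. TgGRK5 mice carry a transgene that overexpresses GRK5, the G protein-coupled receptor kinase 5, in cardiomyocytes only, and NLC mice are their non-transgenic littermates. Both groups underwent MI, so that no library came from a sham-operated heart, and the mice of the study were 8 to 12 weeks old at surgery. The study used both sexes and the labels give none. Ddx3y, a Y-linked gene, was at 63.4 to 92.7 CPM (counts scaled to library size with TMM factors) in every library, and Xist, the transcript of the inactive X chromosome, was at 0.916 CPM or less. By these transcripts every library read as male.

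The adult heart draws most of its energy from long-chain fatty acids. Lipases release them from circulating and stored triglyceride, transporters and binding proteins carry them across the membrane and through the cytosol, and acyl-CoA synthetases activate them to acyl-CoA. The carnitine shuttle moves the acyl group into the mitochondrial matrix, where beta-oxidation shortens the chain in repeated rounds of dehydrogenation, hydration, dehydrogenation and thiolysis, and hands electrons to the respiratory chain. The nuclear receptors PPAR-alpha and ERR-alpha, with the PGC-1 coactivators, drive the transcription of many of these genes. In the injured and failing heart this programme is known to be reduced in favour of glucose.

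The GRK5 transgene was seen in every library of its group. Grk5 was at 60.0, 59.3, 63.1, 73.1 and 46.5 CPM in NLC-MI replicates 1 to 5 and at 1509, 922, 1700, 552 and 1428 CPM in TgGRK5-MI replicates 1 to 5, with a log2 fold change of 4.34 (SE 0.32, adjusted p = 0.000246 in edgeR's quasi-likelihood test). Libraries held from 7968779 counts (NLC-MI replicate 3) to 23381527 counts (NLC-MI replicate 2), and 3 counts corresponded to 0.128 to 0.376 CPM on total counts. TgGRK5-MI replicate 4, with 9114469 counts, was the next shallowest. Defining cardiomyocyte transcripts were abundant in all 10 libraries, with the 12 markers (Myh6, Tnnt2, Tnni3, Actc1, Myl2, Myl3, Ryr2, Pln, Atp2a2, Ttn, Mb and Ckm) summing to 64363 to 167168 CPM. Libraries also held fibroblast transcripts (8 markers, 4031 to 24766 CPM) and myeloid transcripts (10 markers, 713 to 2418 CPM). Endothelial transcripts (8 markers, 792 to 1598 CPM) and mural transcripts (6 markers, 766 to 1986 CPM) were present as well. Adipocytes express many of the same lipid genes, but their 6 markers (Adipoq, Plin1, Lep, Cidec, Cfd and Adrb3) summed to at most 1.04 CPM, with Lep at 0 counts throughout.

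The promoters of these genes are known to hold sites for nuclear receptors, so the letters of such sites were searched in the 250 bases before the transcription start on both strands. Promoter sequences came from RefSeq on GRCm38.p6 and were matched for 35 of the 41 genes, in 42 promoters. Cpt1b, Acat1, Ppargc1b, Acaa2, Decr1 and Lpl had no entry. The letters AGGTCA, the core that PPAR, RXR and ERR receptors share, was found in 8 of the 42 member promoters (19%) and in 4607 of all 32851 promoters (14.0%). The 8 genes were Acadm, Acadvl, Acsl6, Cd36, Cpt1a, Echs1, Plin5 and Ucp3. The longer ERR letters TCAAGGTCA, which contain AGGTCA, were found in Acsl6 alone and in 0.387% of all promoters. A direct repeat of this core with 1 base between, AGGTCANAGGTCA, was found in 0 member promoters and in 11 of all promoters. The stretches around 7 of these matches are shown because they belong to 6 genes spread along the pathway, from uptake to uncoupling. None of these stretches overlaps an annotated exon. Those of Cd36 and Cpt1a lie within the GENCODE bounds of their genes, before a RefSeq start inside them. They are written 5′ to 3′ on the strand of the gene, with the match in capitals (TGACCT is AGGTCA read on the other strand).
Cd36, chr5:17836102-17836141, minus strand: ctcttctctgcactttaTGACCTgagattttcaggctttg
Acsl6, chr11:54303640-54303679, plus strand: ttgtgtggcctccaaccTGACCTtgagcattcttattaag
Cpt1a, chr19:3323190-3323229, plus strand: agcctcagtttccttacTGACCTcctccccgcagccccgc
Acadvl, chr11:70015493-70015532, minus strand: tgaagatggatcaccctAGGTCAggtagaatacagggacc
Echs1, chr7:140116482-140116521, minus strand: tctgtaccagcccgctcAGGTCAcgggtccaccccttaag
Ucp3, chr7:100472825-100472864, plus strand: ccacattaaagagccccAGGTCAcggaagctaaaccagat
Ucp3, chr7:100472930-100472969, plus strand: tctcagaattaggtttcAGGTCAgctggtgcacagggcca
In Ucp3 the first match began 149 bases and the second 44 bases before the start. A match describes the letters of the window only.

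Hadha and Hadhb, which encode the alpha and beta subunits of the mitochondrial trifunctional protein, lie head to head on chromosome 5. Hadha (30118304 to 30155162, minus strand) and Hadhb (30155248 to 30184593, plus strand) are separated by 85 bases with 69.4% GC that belong to no annotated exon, and their RefSeq starts lie 272 bases apart. This shared stretch is shown because the subunit ratio is given further on. Whether the stretch bears on that ratio was not tested.
Hadha to Hadhb, chr5:30155163-30155247, plus strand: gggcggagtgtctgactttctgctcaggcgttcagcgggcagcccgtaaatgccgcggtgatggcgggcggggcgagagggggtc

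Compared per length of transcript, the pathway spanned more than 3 orders of magnitude. Fabp3, the cytosolic fatty acid binding protein of heart, stood first at 4313 ± 1621 CPM per kb (SD, n = 10), and Lpl, the lipase that frees fatty acids from circulating lipoproteins, followed at 1306 ± 545. The trifunctional protein subunit Hadhb (707 ± 237) and the dehydrogenases of long and medium chains, Acadl (526 ± 148) and Acadm (467 ± 192), came next with Etfb (487 ± 261), a subunit of the flavoprotein that takes their electrons. The ranges of mean ± SD overlap for every neighbour from Hadhb down to Acadm. The same libraries enter each SD, so this overlap does not settle the order within a library, which was not tested. The fatty acid transporter Cd36 was at 382 ± 92.1 CPM per kb. The lowest levels belonged to Acsl3 (2.22 ± 0.420) and Acsl6 (2.66 ± 0.931), minor acyl-CoA synthetases, to Acot1 (4.24 ± 2.02), a cytosolic thioesterase, and to the receptor gene Ppara (4.51 ± 1.96). All 41 genes passed the filter on low counts, and the smallest count of any of them in a library was 33, for Acsl6.

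**Figure D1:**
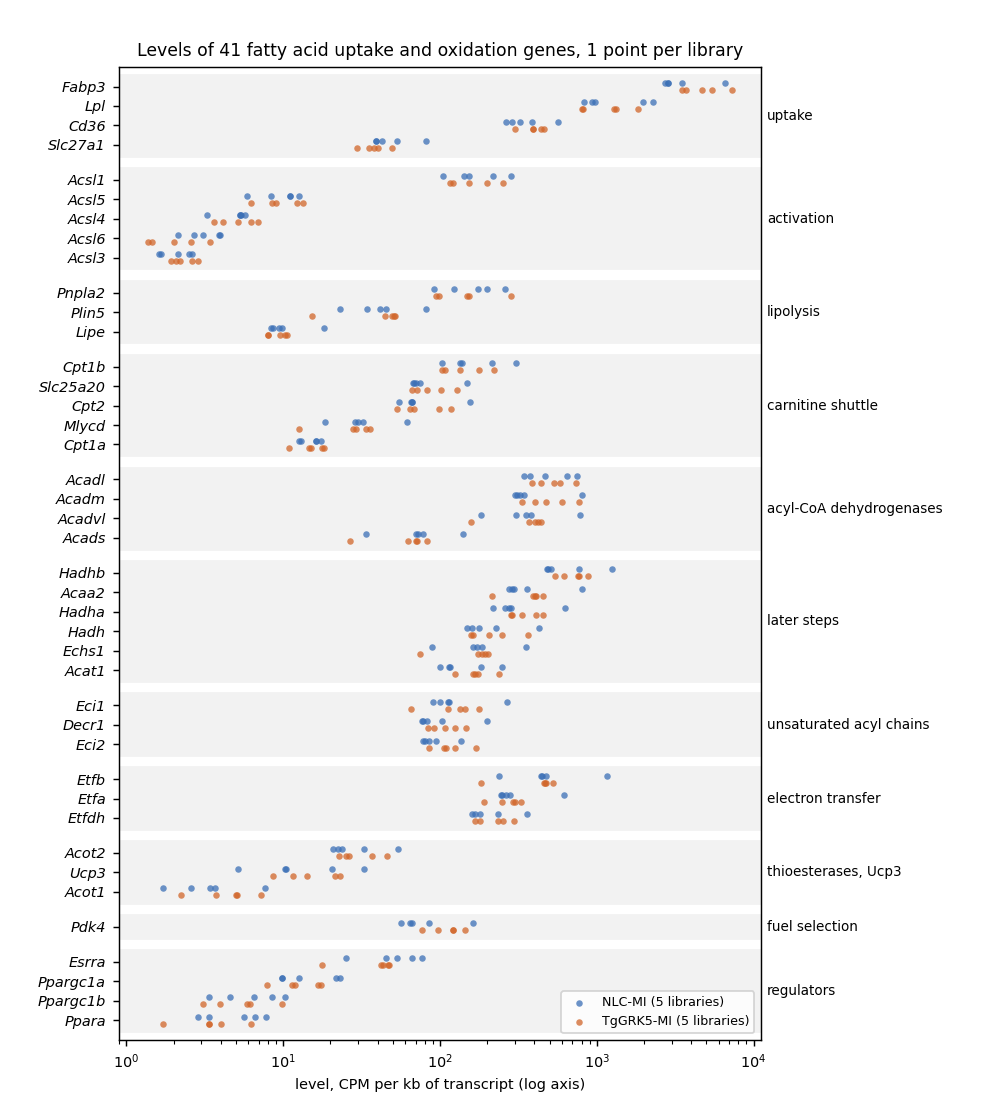
Level of each of the 41 genes in CPM per kb of its principal transcript (log axis), grouped by role, with 1 point per library (blue, 5 NLC-MI; orange, 5 TgGRK5-MI). Fabp3 and Lpl are highest and Acsl3 and Acsl6 lowest, and for every gene the points of the groups overlap.

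The comparison of TgGRK5-MI with NLC-MI asked whether overexpression of GRK5 in cardiomyocytes changed transcript levels after MI. None of the 41 genes passed a threshold of the test. By edgeR's quasi-likelihood test, 0 had an adjusted p under 0.10, where 12 of the 15232 genes tested had (0.0788%), and 0 had an unadjusted p under 0.05, where 586 of all genes had (3.85%, of which 1.77% higher and 2.08% lower). DESeq2 and limma-voom also gave 0 at either threshold. The CPM ranges of the groups overlapped for all 41, while 153 of the genes tested (1.0%) had groups that did not overlap. The log2 fold changes ran from -0.53 to 0.40 with a median of -0.02, 18 of 41 lying above 0. Over all genes tested the median was 0.0013, with 50.2% above 0. The median gene had a 95% interval of ± 0.67 around its log2 fold change, and across the 41 the intervals reached from -1.25 (Etfb) to 1.17 (Fabp3), and a 2-fold difference lay inside the interval of 11 genes. In bulk RNA of this kind, fewer cardiomyocytes and less RNA per cardiomyocyte cannot be told apart.

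**Figure D2:**
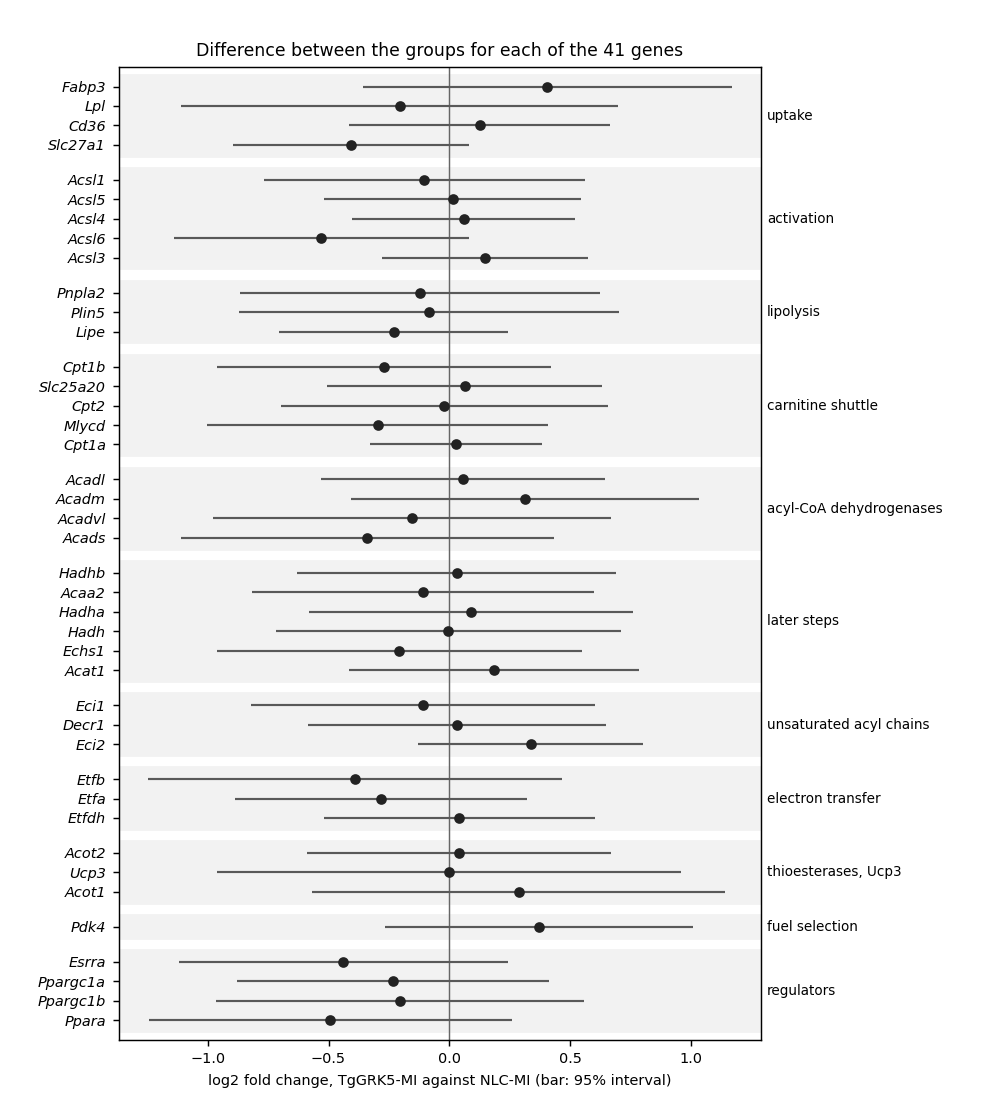
log2 fold change of TgGRK5-MI against NLC-MI for each of the 41 genes, grouped by role (point, estimate; bar, 95% interval from edgeR's quasi-likelihood fit). Every interval crosses 0, and the estimates lie between -0.53 and 0.40.

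Among the 4 genes of uptake, 0 passed either threshold. Fabp3 was at 2348, 2361, 2864, 2258 and 5444 CPM in NLC-MI replicates 1 to 5 and at 3880, 3073, 5963, 2864 and 4443 CPM in TgGRK5-MI. NLC-MI replicate 5 was far above the other 4 of its group, and these 4 lay below or level with the lowest TgGRK5-MI library. This gave a log2 fold change of 0.40 (SE 0.35, adjusted p = 1.00, exact permutation p = 0.198). Without NLC-MI replicate 5 it was 0.71 (adjusted p = 0.957, unadjusted p = 0.0312), and without TgGRK5-MI replicate 3 it was 0.21 (unadjusted p = 0.562).

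Slc27a1, a fatty acid transport protein, was at 109, 120, 109, 149 and 228 CPM in NLC-MI and at 113, 99.0, 139, 82.5 and 106 CPM in TgGRK5-MI. The groups overlapped broadly, with the highest value again in NLC-MI replicate 5. Its log2 fold change of -0.41 (SE 0.22, exact permutation p = 0.151) was among the 5 largest of the 41 and among those with the lowest unadjusted p in edgeR's quasi-likelihood test (0.0947, adjusted p = 1.00). Without NLC-MI replicate 5 the estimate was -0.18 (unadjusted p = 0.315), and without TgGRK5-MI replicate 3 it was -0.52 (unadjusted p = 0.0490). Cd36 was at 974, 901, 1310, 1097 and 1919 CPM in NLC-MI and at 1341, 1022, 1572, 1337 and 1494 CPM in TgGRK5-MI, a log2 fold change of 0.13 (SE 0.25). Lpl ranged from 3399 to 9406 CPM in NLC-MI and from 3312 to 7521 CPM in TgGRK5-MI.

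In the acyl-CoA synthetase family, which activates fatty acids, 0 of 5 members passed. Acsl1, the main form in heart, was at 406, 555, 850, 601 and 1110 CPM in NLC-MI and at 779, 453, 980, 596 and 470 CPM in TgGRK5-MI, a log2 fold change of -0.10 (SE 0.30). Acsl6, a minor member, had the largest absolute change of the 41 genes. It was at 5.51, 6.96, 10.3, 8.02 and 10.1 CPM in NLC-MI and at 6.71, 3.80, 8.87, 3.55 and 5.26 CPM in TgGRK5-MI. The 3 lowest libraries were TgGRK5-MI, yet TgGRK5-MI replicate 3 lay above 3 of the NLC-MI libraries. Its log2 fold change was -0.53 (SE 0.28, 95% interval -1.14 to 0.08, exact permutation p = 0.103), with the lowest unadjusted p of the 41 in edgeR's quasi-likelihood test (0.0836, adjusted p = 1.00). With 1 library left out it ran from -0.75 without TgGRK5-MI replicate 3 (unadjusted p = 0.0167, beside 3.33% of all genes under 0.05) to -0.41 without TgGRK5-MI replicate 4 (unadjusted p = 0.175). It was -0.66 without NLC-MI replicate 1 (unadjusted p = 0.0436, adjusted p = 0.944), beside 5.18% of all genes under 0.05, and -0.32 without both shallow libraries (unadjusted p = 0.298).

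The other Acsl genes, which differ in the chain lengths they prefer and in their place in the cell, had smaller estimates. Acsl3 was at 9.87, 8.46, 10.3, 6.38 and 6.61 CPM in NLC-MI and at 8.72, 10.3, 7.56, 11.3 and 8.16 CPM in TgGRK5-MI. Acsl4 was at 30.4, 28.5, 28.0, 28.2 and 17.3 CPM in NLC-MI and at 32.9, 27.4, 19.0, 36.7 and 22.0 CPM in TgGRK5-MI. Acsl5 was at 53.9, 46.8, 35.3, 46.7 and 25.1 CPM in NLC-MI and at 35.9, 56.5, 26.5, 38.5 and 52.2 CPM in TgGRK5-MI. Acsl4 and Acsl5 were lowest in NLC-MI replicate 5 and next lowest in TgGRK5-MI replicate 3, the opposite order to Acsl1. The log2 fold changes of the 3 were 0.15, 0.06 and 0.01, with SEs of 0.20 to 0.24.

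Of the 3 genes of intracellular lipolysis, 0 passed. Pnpla2, which encodes the adipose triglyceride lipase ATGL, was at 165, 223, 361, 314 and 467 CPM in NLC-MI and at 277, 169, 514, 268 and 178 CPM in TgGRK5-MI. Its values spread more than 2-fold within each group, and the log2 fold change was -0.12 (SE 0.34). The hormone-sensitive lipase gene Lipe (-0.23) and Plin5 (-0.08), which coats lipid droplets next to mitochondria, had SEs of 0.22 and 0.36. In Plin5 the lowest library was TgGRK5-MI replicate 4 (30.3 CPM), while the other 4 of the group lay between 88.7 and 103 CPM.

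In the carnitine shuttle, 0 of 5 genes passed. Cpt1b, the muscle form of the carnitine palmitoyltransferase at the outer membrane, was at 299, 402, 390, 623 and 890 CPM in NLC-MI and at 516, 313, 641, 299 and 389 CPM in TgGRK5-MI, a log2 fold change of -0.27 (SE 0.32). Cpt1b shares 2744 exon bases (81.4% of its exons) with Gm44502 on the same strand, which is not among the genes counted. Cpt1a, the liver form, was at 69.7, 70.2, 54.2, 74.9 and 56.0 CPM in NLC-MI and at 76.9, 78.3, 47.4, 65.4 and 63.4 CPM in TgGRK5-MI. It varied least of the 41 genes, 1.65-fold from its lowest to its highest library, and its log2 fold change of 0.03 had the narrowest interval (-0.33 to 0.38). The carnitine-acylcarnitine carrier Slc25a20 (0.06), the inner-membrane enzyme Cpt2 (-0.02) and Mlycd (-0.30), whose enzyme degrades the CPT1 inhibitor malonyl-CoA, had SEs of 0.26 to 0.32.

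In the first step of beta-oxidation, 0 of the 4 acyl-CoA dehydrogenase genes passed. Acadl was at 662, 722, 1239, 891 and 1429 CPM in NLC-MI and at 1019, 736, 1417, 1126 and 845 CPM in TgGRK5-MI, a log2 fold change of 0.06 (SE 0.27). Acadm, the medium-chain enzyme, was at 620, 705, 664, 633 and 1639 CPM in NLC-MI and at 1227, 832, 1585, 679 and 974 CPM in TgGRK5-MI. As in Fabp3, 4 NLC-MI libraries were low and close together and replicate 5 was far above them, and here it was the highest of all 10. The log2 fold change was 0.31 (SE 0.33) in all libraries and 0.68 (adjusted p = 0.928, unadjusted p = 0.0192 in edgeR's quasi-likelihood test) without NLC-MI replicate 5. Without TgGRK5-MI replicate 3 it was 0.11 (unadjusted p = 0.745). The very-long-chain gene Acadvl (-0.15) and the short-chain gene Acads (-0.34) had SEs of 0.38 and 0.35. Acadvl shares 1151 exon bases (42.9% of its exons) with Dvl2 on the opposite strand, and reads there cannot be told apart without strand. In all libraries together Dvl2 had 1439 counts and Acadvl 150555.

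The later steps gave 0 of 6. Hadhb was at 995, 987, 1578, 1053 and 2548 CPM in NLC-MI and at 1586, 1260, 1814, 1104 and 1551 CPM in TgGRK5-MI. Hadha was at 877, 1105, 1141, 1051 and 2514 CPM in NLC-MI and at 1658, 1152, 1830, 1136 and 1347 CPM in TgGRK5-MI. For each subunit NLC-MI replicate 5 was the highest of all 10 libraries, and the log2 fold changes were 0.03 (SE 0.30) and 0.09 (SE 0.31). Hadh, Echs1, Acaa2 and Acat1, which encode a hydroxyacyl-CoA dehydrogenase, the enoyl-CoA hydratase and a pair of thiolases, ranged from -0.21 to 0.18.

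Unsaturated chains need auxiliary enzymes, and 0 of these 3 genes passed. Eci1, an enoyl-CoA isomerase, was at 127, 131, 102, 114 and 303 CPM in NLC-MI and at 152, 129, 201, 74.9 and 163 CPM in TgGRK5-MI, a log2 fold change of -0.11 (SE 0.33). The related isomerase Eci2, at 135 to 238 CPM in NLC-MI and 149 to 297 CPM in TgGRK5-MI, had a log2 fold change of 0.34 (SE 0.21, unadjusted p = 0.140 and adjusted p = 1.00 in edgeR's quasi-likelihood test). Without NLC-MI replicate 5 it was 0.50 (unadjusted p = 0.0256, adjusted p = 0.937), and without TgGRK5-MI replicate 3 it was 0.16 (unadjusted p = 0.426). Decr1, the dienoyl-CoA reductase, was at 0.03 (SE 0.28).

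The electron transfer flavoprotein takes electrons from the dehydrogenases, and 0 of its 3 genes passed. Etfb was at 399, 394, 213, 424 and 1035 CPM in NLC-MI and at 410, 417, 468, 162 and 423 CPM in TgGRK5-MI. Apart from NLC-MI replicate 5 and the shallow libraries NLC-MI replicate 3 and TgGRK5-MI replicate 4, the other 7 lay between 394 and 468 CPM. Over all libraries the log2 fold change was -0.39 (SE 0.39) and without NLC-MI replicate 5 it was 0.07. Etfa, the other subunit, was at 342, 345, 390, 369 and 859 CPM in NLC-MI and at 405, 349, 457, 264 and 420 CPM in TgGRK5-MI, a log2 fold change of -0.28 (SE 0.28). The oxidoreductase gene Etfdh was at 0.04 (SE 0.26).

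Genes that dispose of surplus acyl-CoA or select the fuel likewise did not pass. Acot2, a mitochondrial thioesterase, was at 48.9, 52.2, 71.6, 45.4 and 119 CPM in NLC-MI and at 81.4, 55.4, 101, 57.6 and 50.1 CPM in TgGRK5-MI. Acot1, its cytosolic neighbour on chromosome 12, was at 7.75, 8.34, 5.89, 3.89 and 17.5 CPM in NLC-MI and at 11.6, 11.4, 16.4, 5.06 and 8.48 CPM in TgGRK5-MI. Both were highest in NLC-MI replicate 5 and second highest in TgGRK5-MI replicate 3, and their log2 fold changes were 0.04 (SE 0.29) and 0.29 (SE 0.39). Their transcripts are 95.1% identical over 1274 bases, and shared reads make the level of Acot1 uncertain. Ucp3, an uncoupling protein of the inner membrane, spread 6.38-fold over the libraries with a log2 fold change of -0.0021 (SE 0.44).

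Pdk4, the kinase that shuts pyruvate dehydrogenase and so favours fatty acids over glucose, was at 226, 196, 563, 230 and 298 CPM in NLC-MI and at 506, 267, 422, 336 and 425 CPM in TgGRK5-MI. The highest library was NLC-MI replicate 3 and the other 4 NLC-MI libraries lay below 4 of the 5 TgGRK5-MI libraries. In all libraries the log2 fold change was 0.37 (SE 0.29, adjusted p = 1.00, exact permutation p = 0.183). Without NLC-MI replicate 3 it was 0.72 (unadjusted p = 0.00604, adjusted p = 0.652 in edgeR's quasi-likelihood test), beside 6.87% of all genes at an unadjusted p under 0.05 in that comparison. Without NLC-MI replicate 2 it was 0.25 (unadjusted p = 0.424). The high value came from the shallowest library, which held 7968779 counts.

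The 4 regulators all had log2 fold changes below 0, from -0.49 to -0.20, and 0 passed. Ppara, the receptor that senses fatty acids, was at 11.5, 19.3, 9.81, 22.7 and 26.6 CPM in NLC-MI and at 21.3, 11.5, 11.5, 5.82 and 13.8 CPM in TgGRK5-MI. The 3 highest libraries were 2 of NLC-MI and, just below them, TgGRK5-MI replicate 1, while NLC-MI replicates 1 and 3 lay among the TgGRK5-MI values. The log2 fold change was -0.49 (SE 0.34, 95% interval -1.24 to 0.26, exact permutation p = 0.270) and -0.77 without TgGRK5-MI replicate 1 (unadjusted p = 0.0467, adjusted p = 1.00 in edgeR's quasi-likelihood test), beside 3.8% of all genes under 0.05. It was -0.32 without NLC-MI replicate 5 (unadjusted p = 0.388) and -0.31 without TgGRK5-MI replicate 4 (unadjusted p = 0.344).

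Esrra, which encodes ERR-alpha, was at 101, 119, 56.8, 149 and 173 CPM in NLC-MI and at 97.5, 94.9, 104, 39.6 and 106 CPM in TgGRK5-MI. The lowest library of each group was its shallow one, NLC-MI replicate 3 and TgGRK5-MI replicate 4. Without the pair, the TgGRK5-MI libraries spanned 94.9 to 106 CPM and the NLC-MI libraries 101 to 173 CPM. The log2 fold change was -0.44 (SE 0.31, exact permutation p = 0.333), and -0.43 without both shallow libraries (unadjusted p = 0.0352, adjusted p = 1.00 in edgeR's quasi-likelihood test), a comparison in which 4.68% of all genes had an unadjusted p under 0.05. With 1 library left out it ran from -0.62 without NLC-MI replicate 3 (unadjusted p = 0.0443, beside 6.87% of all genes) to -0.25 without TgGRK5-MI replicate 4 (unadjusted p = 0.362), and it was -0.28 without NLC-MI replicate 5 (unadjusted p = 0.403). Ppargc1a, the coactivator PGC-1alpha, was at 63.3, 63.5, 140, 81.6 and 149 CPM in NLC-MI and at 76.8, 51.0, 109, 113 and 73.8 CPM in TgGRK5-MI. Ppargc1b, the coactivator PGC-1beta, was at 12.4, 16.7, 37.8, 23.8 and 30.9 CPM in NLC-MI and at 21.5, 11.2, 35.8, 22.5 and 14.4 CPM in TgGRK5-MI. Both coactivators spread about 3-fold within the 10 libraries, with log2 fold changes of -0.23 (SE 0.30) and -0.20 (SE 0.35).

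**Figure D3:**
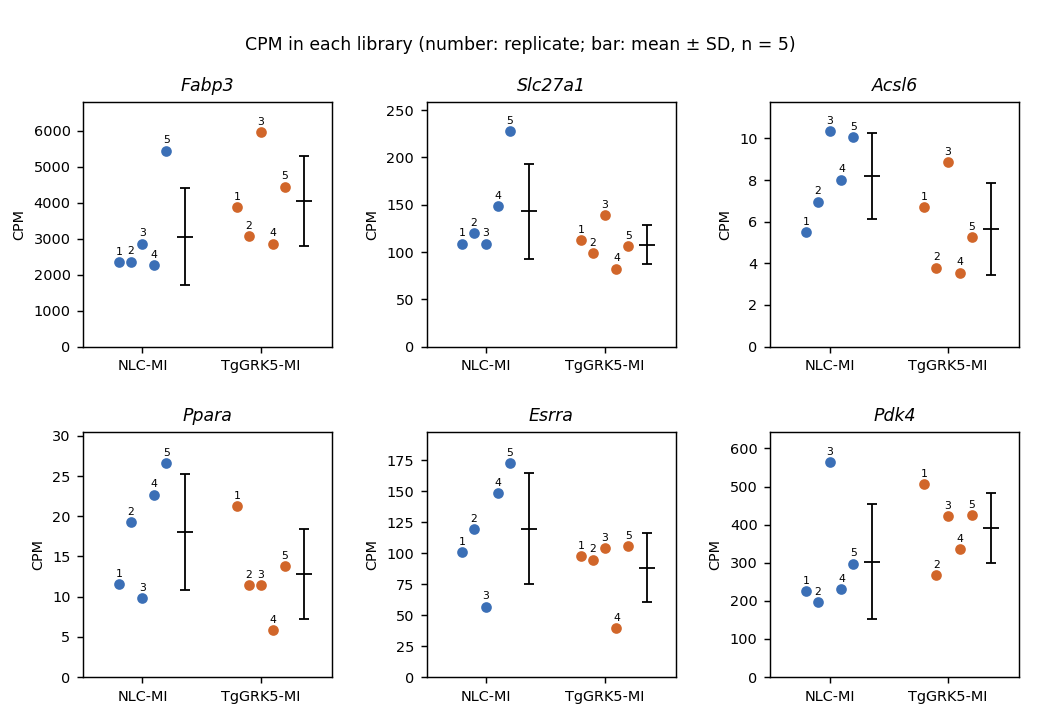
CPM of Fabp3, Slc27a1, Acsl6, Ppara, Esrra and Pdk4 in each library (blue, NLC-MI; orange, TgGRK5-MI; the number is the replicate; the bar is the mean ± SD, n = 5). The groups overlap in each panel, and NLC-MI replicate 5 is the highest of its group for Fabp3, Slc27a1, Ppara and Esrra.

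Single libraries stood apart over these genes. NLC-MI replicate 5 was the highest of the 10 libraries for 31 of the 41 genes, where it was the highest for 16.8% of all genes tested. The 41 genes summed to 38832 CPM in this library, against 15625, 17020, 23944 and 18060 CPM in NLC-MI replicates 1 to 4. The sums in TgGRK5-MI ran from 17882 to 31655 CPM with a median of 21625 CPM, and the highest was TgGRK5-MI replicate 3. In these libraries 36 of the 41 genes lay above their mean over the 10 libraries. Exceptions common to both were Acsl3, Acsl4, Acsl5 and Cpt1a, which lay below their mean in each, and the fifth was Pdk4 in NLC-MI replicate 5 and Ppara in TgGRK5-MI replicate 3. At the other end, TgGRK5-MI replicate 4 was the lowest library for 16 genes and NLC-MI replicate 1 for 10. Over all genes tested these libraries were the lowest for 13.2% and 7.53%.

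Cardiomyocyte and fibroblast markers moved with the upper end of this order. NLC-MI replicate 5 held the most cardiomyocyte marker RNA (167168 CPM, with 64363 to 96536 CPM in NLC-MI replicates 1 to 4) and TgGRK5-MI replicate 3 the next most (132302 CPM). The same libraries held the least fibroblast marker RNA, at 4031 and 4198 CPM, and the other 8 held 5817 to 24766 CPM. Myeloid markers summed to 722 CPM in NLC-MI replicate 5 and to 713 to 2156 CPM in the other NLC-MI libraries. Endothelial markers had another order, highest in TgGRK5-MI replicate 4 (1598 CPM) and NLC-MI replicate 3 (1505 CPM) and lowest in TgGRK5-MI replicate 1 (792 CPM). Between the groups, 0 of the 12 cardiomyocyte markers was higher and 1 was lower at an unadjusted p under 0.05, the calcium release channel gene Ryr2 (log2 fold change -0.93, adjusted p = 0.968 in edgeR's quasi-likelihood test), and 0 of the 8 fibroblast, 0 of the 10 myeloid and 0 of the 8 endothelial markers passed. Of the 6 mural markers, Cspg4 was lower (-0.62, unadjusted p = 0.0497, adjusted p = 1.00 in edgeR's quasi-likelihood test). The part of these cell types in the values of the 41 genes was not tested.

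**Figure D4:**
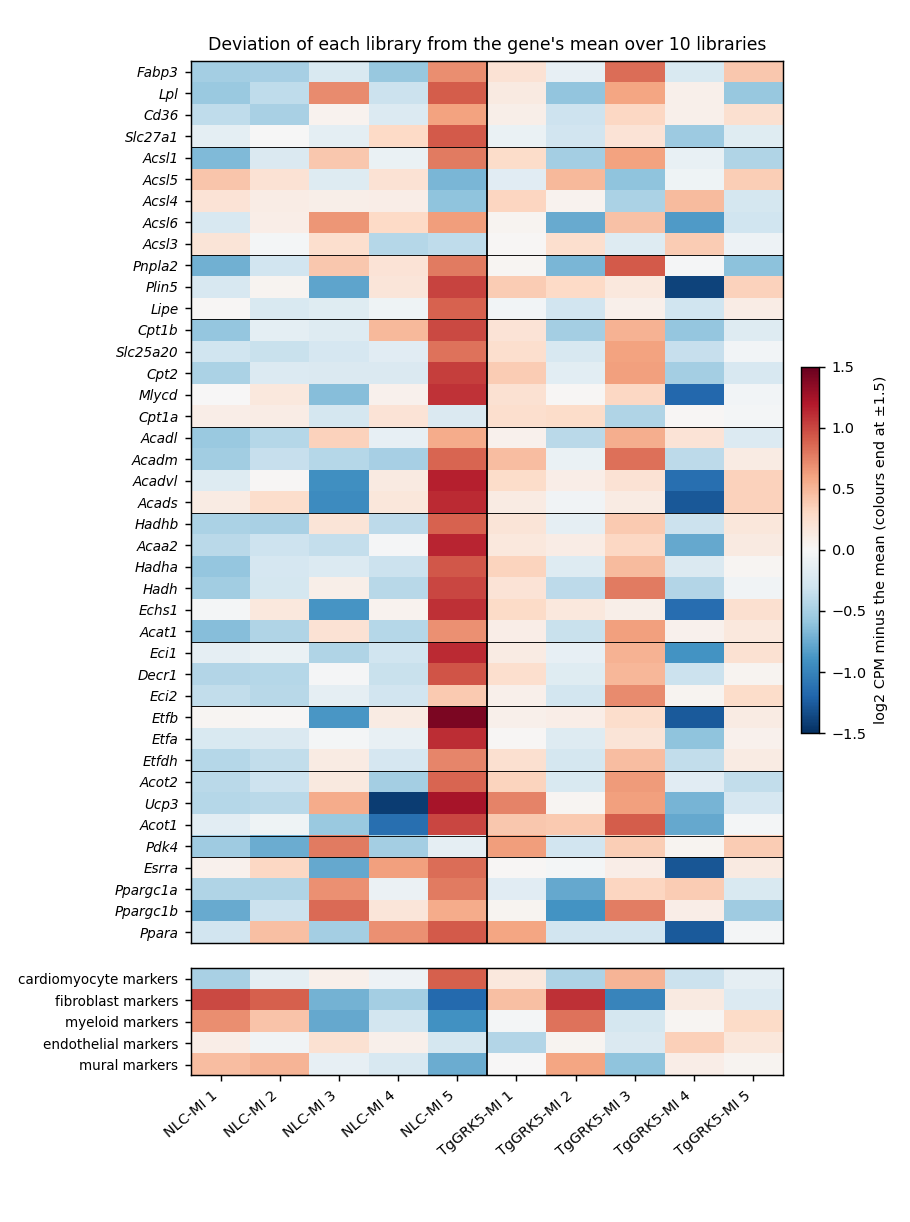
Deviation of each library (columns) from the mean log2 CPM of each gene over the 10 libraries, for the 41 genes grouped by role (upper panel) and, as the mean over each list, for markers of 5 cell types (lower panel). Red is above the mean and blue below, and colours end at ±1.5. NLC-MI replicate 5 is above the mean for 36 of 41 genes and for the cardiomyocyte markers, and below it for the other marker lists.

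The centre of the 41 fold changes moved with single libraries. Without NLC-MI replicate 5 the median log2 fold change was 0.22 with 31 of 41 above 0, and without TgGRK5-MI replicate 3 it was -0.20 with 11 of 41 above 0. Other omissions moved it too, to -0.16 without NLC-MI replicate 1 (11 of 41 above 0) and to -0.13 without TgGRK5-MI replicate 1. Without NLC-MI replicate 2 or 4 it was -0.11. With the covariate of Xist and Y-linked genes the median was -0.15 (11 of 41 above 0). Every library read as male, so this covariate adjusts for no difference of sex. At an unadjusted p under 0.05 the comparison without NLC-MI replicate 5 gave 3 genes, all higher in TgGRK5-MI (Fabp3, Acadm and Eci2), beside 5.04% of all genes, and that without TgGRK5-MI replicate 3 gave 2 that were lower (Slc27a1 and Acsl6), beside 3.33%. With the mean of the cardiomyocyte markers as a covariate, a setting added after the data were seen, 6 genes had an unadjusted p under 0.05 beside 7.21% of all genes. Fabp3 (log2 difference 0.55), Acadm (0.47), Eci2 (0.41) and Acat1 (0.33) were higher, and Acsl6 (-0.48) and Slc27a1 (-0.30) were lower. None of these had an adjusted p under 0.10, and the lowest over all 20 alternatives was 0.451, for Eci2 with this covariate.

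The shallow libraries differed from the others in a further way. NLC-MI replicate 3 and TgGRK5-MI replicate 4 were both more than 0.5 below the mean log2 CPM for 9 genes, namely Plin5, Mlycd, Acadvl, Acads, Echs1, Etfb, Acot1, Ppara and Esrra. The transcripts of these genes had a GC content of 50.5% to 61.8%, against a median of 51.5% over the 41. Acsl3 and Ppargc1a, at 43.2% and 41.7% GC, were more than 0.25 above the mean in both libraries. In TgGRK5-MI replicate 4 the median deviation was -0.74 for the 14 genes with the highest GC content and 0.05 for the 14 with the lowest. In NLC-MI replicate 3 these values were -0.34 and 0.16. In the other 8 libraries the median of the high-GC genes minus that of the low-GC genes ran from -0.09 to 0.44. The pattern was not limited to the 41 genes. Over all genes tested, deviation and GC content correlated at -0.26 in TgGRK5-MI replicate 4 and at -0.25 in NLC-MI replicate 3 (Pearson). The part of GC content in the levels of these genes was not tested.

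The scaling of a library cancels in a ratio within it, apart from the 0.5 CPM added to each gene, which weighs on low genes such as Acot1. Each of 6 pairs of isoforms or subunits was compared per kb on a log2 scale with the exact two-sided permutation test, adjusted over the 6, and 0 differed between the groups (adjusted p = 0.937 for each). Cpt1b exceeded Cpt1a by 6.35, 8.49, 10.7, 12.3 and 23.5 times in NLC-MI and by 9.95, 5.93, 20.0, 6.78 and 9.11 times in TgGRK5-MI. The muscle form therefore made up 85.6% to 96.0% of the 2, with its highest shares in NLC-MI replicate 5 and TgGRK5-MI replicate 3. The log2 ratio was 3.47 ± 0.71 in NLC-MI and 3.23 ± 0.68 in TgGRK5-MI (SD, n = 5, exact permutation p = 0.571).

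Acsl1 exceeded the sum of Acsl3, Acsl4, Acsl5 and Acsl6 by 4.42, 6.54, 10.5, 7.16 and 18.7 times in NLC-MI and by 9.99, 5.03, 16.0, 7.37 and 5.73 times in TgGRK5-MI. It was highest in the same pair of libraries, and Acsl1 made up 81.9% to 95.1% of the family. The log2 ratio was 3.06 ± 0.79 in NLC-MI and 3.01 ± 0.67 in TgGRK5-MI (exact permutation p = 0.905).

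The subunits of the trifunctional protein kept a narrow ratio, with Hadha at 0.449, 0.571, 0.369, 0.509 and 0.503 times Hadhb in NLC-MI and at 0.533, 0.466, 0.514, 0.525 and 0.443 times in TgGRK5-MI. Across libraries in which each subunit varied more than 2.5-fold, this ratio ranged over 0.63 on the log2 scale (exact permutation p = 0.667). That was the least of the 6 pairs, with Ppargc1a to Ppargc1b next at 0.73. Pairs beyond these 6 were not ranked, so the narrow ratio is not shown to be particular to these neighbouring genes. Decr1, on another chromosome, put the libraries in nearly the same order as Hadhb. It was at 229, 231, 306, 246 and 595 CPM in NLC-MI and at 369, 272, 436, 248 and 318 CPM in TgGRK5-MI. Hadhb has a near copy, Gm13910, with 99.8% identity over 1428 bases and 86 counts in all libraries together.

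Etfa to Etfb behaved otherwise. The ratio was 0.551, 0.562, 1.18, 0.559 and 0.532 in NLC-MI and 0.635, 0.536, 0.626, 1.04 and 0.637 in TgGRK5-MI. The shallow libraries NLC-MI replicate 3 and TgGRK5-MI replicate 4 stood apart, and the other 8 lay between 0.532 and 0.637. The transcript of Etfb has 57.1% GC and that of Etfa 45.0%. The log2 ratio was -0.64 ± 0.49 in NLC-MI and -0.56 ± 0.37 in TgGRK5-MI (exact permutation p = 0.611).

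Ppargc1a was 2.80, 2.10, 2.07, 1.91 and 2.70 times Ppargc1b in NLC-MI and 1.99, 2.48, 1.70, 2.78 and 2.81 times in TgGRK5-MI. The log2 ratio was 1.19 ± 0.25 and 1.21 ± 0.32 (exact permutation p = 0.937), and the groups overlapped over nearly their whole range. Acot1 was 0.0857 to 0.162 times Acot2 in NLC-MI and 0.0925 to 0.206 times in TgGRK5-MI (exact permutation p = 0.349). The difference of the log2 ratio was 0.26, and 0.28 with nothing added or 0.21 with 2 CPM added. Its lowest values were in NLC-MI replicates 3 and 4 and TgGRK5-MI replicate 4.

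**Figure D5:**
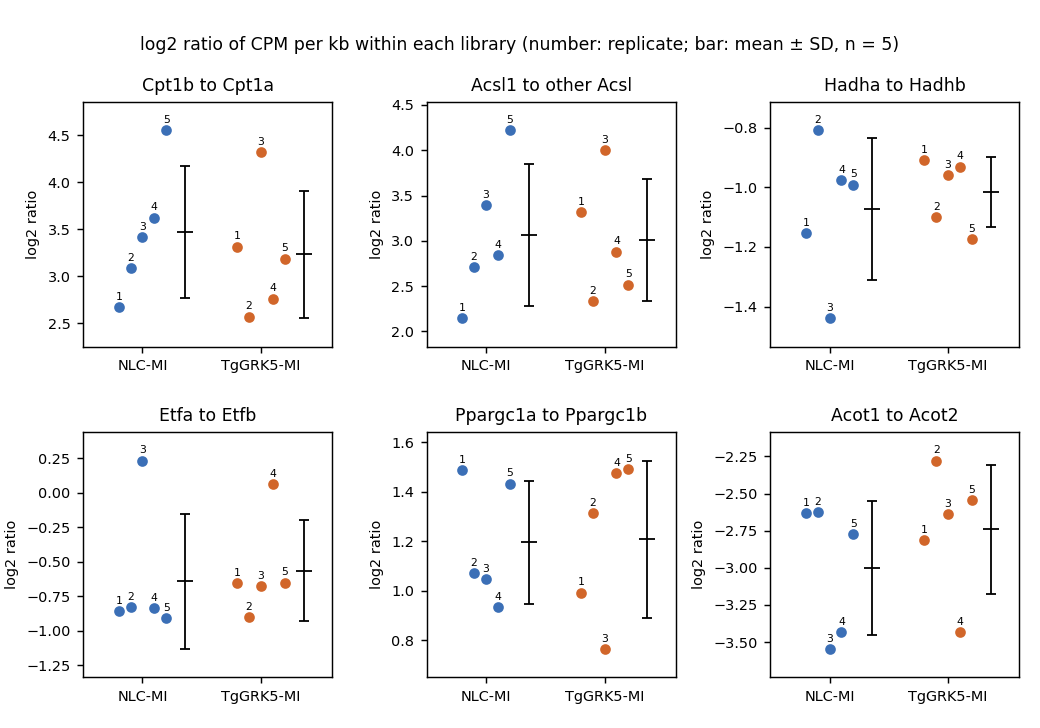
log2 ratio of the levels per kb within each library for 6 pairs (blue, NLC-MI; orange, TgGRK5-MI; the number is the replicate; the bar is the mean ± SD, n = 5; the axes do not start at 0). Cpt1b to Cpt1a and Acsl1 to the other Acsl genes are highest in NLC-MI replicate 5 and TgGRK5-MI replicate 3, and Etfa to Etfb is above 0 in NLC-MI replicate 3 and TgGRK5-MI replicate 4 only.

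The rest of the pathway was followed in 71 other genes for binding, droplets, carnitine, peroxisomes, ketone bodies and regulation. All 71 were tested, 0 had an adjusted p under 0.10, 0 were higher at an unadjusted p under 0.05 and 2 were lower, beside 1.77% and 2.08% of all genes. Their median log2 fold change was -0.14, with 27 of 71 above 0. Slc25a29, a mitochondrial carrier of the carnitine carrier family that transports basic amino acids, was at 3.83, 5.02, 1.83, 5.49 and 9.29 CPM in NLC-MI and at 2.50, 3.05, 2.61, 0.862 and 2.85 CPM in TgGRK5-MI. The log2 fold change was -1.09 (SE 0.40, unadjusted p = 0.0184, adjusted p = 1.00 in edgeR's quasi-likelihood test), and without NLC-MI replicate 5 it was -0.77 with an unadjusted p of 0.0598.

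Acsm5, a medium-chain acyl-CoA synthetase, was at 0.969, 1.90, 1.31, 1.08 and 5.50 CPM in NLC-MI and at 0.895, 1.18, 1.22, 0.215 and 0.859 CPM in TgGRK5-MI. The value in TgGRK5-MI replicate 4 stood for 2 counts, under the floor of 3 counts (0.329 CPM there). Its log2 fold change of -1.25 (SE 0.53, unadjusted p = 0.0371, adjusted p = 1.00 in edgeR's quasi-likelihood test) rested on NLC-MI replicate 5, without which it was -0.55 with an unadjusted p of 0.183. By list, 0 of 9 genes of uptake and binding, 0 of 12 of droplets and triglyceride synthesis, 0 of 11 of peroxisomes, 0 of 5 of ketone bodies, 0 of 14 regulators and 0 of 4 of the Pdk and Ucp families passed in either direction, with median log2 fold changes of 0.08, -0.15, -0.06, -0.20, -0.21 and 0.05. Of the lists that hold Slc25a29 and Acsm5, the other 5 and 9 genes did not pass.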

How the data were processed

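The 10 libraries (5 NLC-MI, 5 TgGRK5-MI, 1 per mouse) were assigned to groups from the sample labels. The authors deposited a table of raw read counts in whole numbers, not normalized, with 51789 Ensembl identifiers as its lines. The submitters' processing notes name Bowtie2, RSEM 1.2.31, DESeq2 and mm10 without their roles. If RSEM made these counts, they are rounded estimates in which its model divided the reads of similar genes. The strand setting and annotation release are not given in the sources used here.

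Counts were compared in R 4.3.3 with edgeR 4.0.16 (TMM factors, filterByExpr by group, 15232 genes tested, quasi-likelihood F test, Benjamini-Hochberg adjustment over all genes tested). Genes were counted at an adjusted p under 0.10 and at an unadjusted p under 0.05. Single genes (log2 CPM with a prior count of 2) and log2 ratios were also compared with the exact two-sided permutation test of the mean. It ran over 252 placements of the libraries, and its smallest p is 0.00794. Levels per length used the principal transcript of GENCODE M21 on GRCm38, and ratios added 0.5 CPM to each gene. Similar transcripts were sought with blastn 2.17.0. The scripts were tested on simulated data. The p-values weigh the difference between the groups against the spread between libraries, 1 per mouse. Libraries also differed in depth and in marker levels, so this spread is not that between mice alone. Totals ran from 7968779 to 23381527 counts, and floors of 3 counts cover counting error only.

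The members and lists (roles, other pathway genes, markers) were chosen with earlier results of these data known. Full values were given for the 5 largest absolute changes, the highest level of each role, the members of the ratios, Pdk4, Cd36 and Ppara, and other pathway genes with an unadjusted p under 0.05. Ryr2, Cspg4, Acadm, Eci2 and further members were named after their values were seen. Alternatives were edgeR's RLE factors, library size alone, DESeq2 1.42.0, limma-voom (limma 3.58.1), other low-count filters, other pseudocounts, the replicate number as a block, a covariate made of Xist minus Y-linked log2 CPM, and each library left out. A cardiomyocyte marker covariate, the omission of both shallow libraries and lengths from all annotated exons were added after the data were seen.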

Additional observations from a re-analysis of the deposited data

Results flagged for a closer look

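Among 100 groups of 5 libraries (each named gene or ratio in each group), 25 held a library set apart from the other 4, its gap to the nearest of them exceeding 0.71 of the group's range. For normally distributed values chance flags about 1 in 20 groups. Genes were taken as CPM without a log and only ratios as log2 values, so this share need not hold here. The genes are also not independent. Of the 25, 15 were NLC-MI replicate 5, 8 TgGRK5-MI replicate 4 and 2 NLC-MI replicate 3.

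NLC-MI replicate 5 was set apart as the highest of its group for genes of uptake, lipolysis, the shuttle, beta-oxidation, the auxiliary enzymes and the flavoprotein. At uptake and lipolysis, Fabp3 was at 5444 CPM (others 2258 to 2864) and Lipe at 65.6 CPM (others 30.3 to 35.8). In the shuttle, Cpt2 was at 371 CPM (others 130 to 157) and Slc25a20 at 266 CPM (others 120 to 134). In beta-oxidation, Acadm was at 1639 CPM (others 620 to 705), Hadha at 2514 CPM (others 877 to 1141), Hadh at 769 CPM (others 268 to 405) and Acaa2 at 1222 CPM (others 419 to 547). Among the auxiliary enzymes, Eci1 was at 303 CPM (others 102 to 131), Eci2 at 238 CPM (others 135 to 164) and Decr1 at 595 CPM (others 229 to 306). Of the flavoprotein, Etfa was at 859 CPM (others 342 to 390) and Etfb at 1035 CPM (others 213 to 424). The synthetase gene Acsm5 was at 5.50 CPM (others 0.969 to 1.90). Acsl4 alone was the lowest of its group there, at 17.3 CPM (others 28.0 to 30.4).

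TgGRK5-MI replicate 4, a shallow library, was the lowest of its group for Plin5 (30.3 CPM, others 88.7 to 103), Acadvl (343 CPM, others 807 to 961), Echs1 (117 CPM, others 274 to 314), Acaa2 (326 CPM, others 598 to 691), Etfb (162 CPM, others 410 to 468), Esrra (39.6 CPM, others 94.9 to 106) and Slc25a29 (0.862 CPM, others 2.50 to 3.05). Its log2 ratio of Etfa to Etfb was 0.063, with the others of its group between -0.90 and -0.65. NLC-MI replicate 3, the shallowest library, had a log2 ratio of Etfa to Etfb of 0.23 with the others between -0.91 and -0.83, and Pdk4 at 563 CPM with the others between 196 and 298 CPM.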

How the results depend on the processing

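No member had an adjusted p under 0.10 in any of the 20 alternatives run for the genes. At an unadjusted p under 0.05, the numbers of genes higher and lower, 0 and 0, became 4 and 2 with the cardiomyocyte marker covariate and 1 and 1 without both shallow libraries, and ran from 0 to 3 and from 0 to 2 with 1 library left out, where their median log2 fold change ran from -0.20 to 0.22. With 1 library left out, 27 of the 41 log2 fold changes took the other sign in at least 1 omission, 8 of them at an absolute value of 0.2 or more in all libraries, Etfb (-0.39), Etfa (-0.28) and Cpt1b (-0.27) among them. In further settings, sign changes are listed only for the genes chosen for full values. With the covariate of Xist and Y-linked genes these were Hadhb (-0.059), Hadha (-0.065), Acot2 (-0.096) and Acot1 (-0.0074). With the marker covariate they were Acsl1 (0.029), Eci1 (0.048), Cpt1a (-0.012) and Acsl5 (-0.070). Without both shallow libraries they were Acsl1 (0.0065), Cpt1a (-0.025), Acsl4 (-0.042) and Acsl5 (-0.0085). With RLE factors and DESeq2, Acsl5 changed sign (-0.0013 and -0.00093). Further members changed sign in the first 3 of these settings, where 11, 24 and 19 of the 41 lay above 0, against 18 in the main fit. With 1 library left out the ranges were -0.098 to 0.34 for Hadhb, -0.097 to 0.22 for Acadl, -0.58 to 0.066 for Etfb, -0.30 to 0.11 for Acsl1, -0.47 to 0.0030 for Cpt1b, -0.47 to 0.073 for Pnpla2, -0.27 to 0.27 for Eci1, -0.15 to 0.34 for Acot2, -0.041 to 0.12 for Cpt1a, -0.069 to 0.16 for Acsl4, -0.13 to 0.13 for Acsl5, -0.053 to 0.44 for Hadha, -0.40 to 0.060 for Etfa and -0.49 to 0.0077 for Ppargc1b. For the difference of log2 ratios they were -0.51 to 0.033 for Cpt1b to Cpt1a, -0.30 to 0.24 for Acsl1 to the other Acsl genes, -0.033 to 0.13 for Hadha to Hadhb, -0.079 to 0.30 for Etfa to Etfb and -0.058 to 0.12 for Ppargc1a to Ppargc1b. The cause of these shifts was not tested. The covariate of Xist and Y-linked genes adjusts for no difference of sex, since every library read as male. Of the 702 values recomputed, 628 kept their direction and their side of the threshold, 64 took the other sign and 10 were counts of genes that moved. With no filter 18 of all genes and with DESeq2 69 had an adjusted p under 0.10, against 12. The alternative without mitochondrially encoded genes was not run, since no such gene is among those analysed here.

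Same-numbered libraries are different mice. Their deviations correlated at 0.0717, 0.662, 0.381, -0.341 and 0.0848 (different numbers, -0.606 to 0.731), so the numbers were not taken to pair them. With the replicate block, 0 members had an unadjusted p under 0.05 and the median log2 fold change was 0.0055. The depth limits Acsl6, Acot1 and Ppara most, at 33 to 54 counts in their lowest libraries.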
